A study of Mus musculus with 6 samples.

Results

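The genes described here are the growth factor receptors through which dendritic cells and macrophages develop and survive, with a ligand and a lineage factor of the same system. They are 7 receptor genes (Flt3, Kit, Csf1r, Csf2ra, Csf2rb, Csf2rb2 and Csf3r), the ligand gene Csf1 and the transcription factor gene Zbtb46. These 9 genes were picked by symbol from the 26519 genes of the count table, with earlier results of these data known. All 9 were in the table and all 9 passed the filter on low counts that left 12580 genes, with 95 to 31058 counts per gene and library.

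The samples were tumour-infiltrating dendritic cells of mice that carried tumours of MC38, a mouse colon carcinoma line. The MAVS KO group held 3 samples from hosts labelled as knockout of MAVS, an adaptor on mitochondria for RIG-I-like receptors, which sense viral RNA. The WT group held 3 samples from wild-type hosts. In both groups cells were isolated on day 10 after MC38 cells were inoculated, and the labels give no other treatment, strain or age. The study asks what host MAVS does in antitumour immunity. The labels give the knockout as one of the host. They do not tie replicates to separate animals, and the p-values cover no more than the variation among these 6 samples.

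FLT3 is the receptor tyrosine kinase that, with its ligand, drives conventional dendritic cells out of bone marrow progenitors. CSF1R, a related kinase, does the same for monocytes and macrophages, and KIT, the receptor for stem cell factor, acts in progenitors, mast cells and some conventional dendritic cells. The receptors for GM-CSF, IL-3 and G-CSF belong to the cytokine receptor family and signal through JAK2 and STAT proteins. ZBTB46 is a zinc finger factor that separates conventional dendritic cells from macrophages.

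Library totals were 14466640 to 18862534 counts in MAVS KO and 17357031 to 20851733 counts in WT. Mavs itself (ENSMUSG00000037523, chromosome 2) had 8.99, 12.8 and 9.45 CPM (counts brought to a common library size with TMM factors) in the 3 MAVS KO libraries, against 33.9, 39.7 and 39.7 CPM in the 3 WT libraries. edgeR's quasi-likelihood test, with p-values adjusted by Benjamini-Hochberg over all tested genes here and throughout, gave a log2 fold change of -1.86 (SE 0.18) and an adjusted p of 0.0017. Reads of the gene were thus still counted in MAVS KO, and which part was deleted is not stated. Macrophage markers were abundant in samples labelled as dendritic cells. The 24 macrophage markers summed to 32450 to 40900 CPM in MAVS KO and 30330 to 35090 CPM in WT, against 1043 to 1259 CPM in MAVS KO and 1199 to 1400 CPM in WT for 27 genes shared by conventional dendritic cells. Lyz2, the macrophage lysozyme, alone averaged 22100 ± 4494 CPM in MAVS KO and 21640 ± 2363 CPM in WT (SD, n = 3 each). The lists hold different genes, so these sums do not give the share of each cell type. The sources used here do not give how the cells were sorted.

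Of the 9 genes, 3 fell in MAVS KO and none rose (adjusted p under 0.05 in edgeR's quasi-likelihood test), against 2.81% of all tested genes called in either direction, 1.05% called lower and 1.76% called higher. The 9 genes were chosen with earlier results of these data known, so their share is a description. The 3 that fell were Flt3, Kit and Zbtb46, at 4.03, 2.41 and 2.29 times lower levels. The other 6 genes, which include the macrophage receptor Csf1r and all GM-CSF receptor chains, did not pass. Without MAVS KO replicate 1 the count was 0 of 9, and without MAVS KO replicate 3 it was 1 of 9, Flt3. With no filter on low counts Csf1 and Csf2rb2 also passed, both higher in MAVS KO, while 3.48% of all genes were called. That fit gave far smaller adjusted p-values for Flt3 (2.65e-24, against 0.011 with the filter) and Kit (3.33e-07, against 0.0172) in edgeR's quasi-likelihood test. Their log2 fold changes hardly moved (-2.02 and -1.27), so the added calls are read with caution. Scaling by library size alone left the same 3 calls among the 9 genes, but turned the split over all tested genes to 102 higher and 341 lower, against 222 higher and 132 lower with TMM. The median log2 fold change of the 9 genes was -0.06, and that of all tested genes was -0.002. In bulk RNA, fewer cells of a type and less RNA per cell cannot be told apart.

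The promoters of the 3 genes that fell are shown with that of Csf2ra, whose level did not differ detectably, so that the shared and unshared letters can be seen. Each sequence runs from 250 bases before to 50 bases after the start in the RefSeq table (GRCm38.p6), read 5′ to 3′ on the gene's strand. Capitals mark GAGGAA, the PU.1-type ETS motif, and CANNTG, the E-box, on either strand. The coordinates are chr5:147400440-147400739 on the minus strand for Flt3, chr5:75574737-75575036 on the plus strand for Kit, chr2:181424339-181424638 on the minus strand for Zbtb46 and chr19:61228369-61228668 on the minus strand for Csf2ra. The RefSeq start of Zbtb46 lies inside the gene body of the annotation used for the counts.
Flt3: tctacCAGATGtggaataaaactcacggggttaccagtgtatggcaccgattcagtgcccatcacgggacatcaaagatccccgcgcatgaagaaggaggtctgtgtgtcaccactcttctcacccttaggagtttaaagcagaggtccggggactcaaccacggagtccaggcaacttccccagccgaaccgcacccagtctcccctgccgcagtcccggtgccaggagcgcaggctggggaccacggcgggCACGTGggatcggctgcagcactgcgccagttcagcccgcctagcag
Kit: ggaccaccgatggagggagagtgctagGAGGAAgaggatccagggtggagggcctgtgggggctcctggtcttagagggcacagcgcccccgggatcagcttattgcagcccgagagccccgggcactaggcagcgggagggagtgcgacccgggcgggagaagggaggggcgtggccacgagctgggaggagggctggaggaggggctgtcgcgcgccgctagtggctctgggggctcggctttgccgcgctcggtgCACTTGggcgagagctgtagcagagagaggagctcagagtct
Zbtb46: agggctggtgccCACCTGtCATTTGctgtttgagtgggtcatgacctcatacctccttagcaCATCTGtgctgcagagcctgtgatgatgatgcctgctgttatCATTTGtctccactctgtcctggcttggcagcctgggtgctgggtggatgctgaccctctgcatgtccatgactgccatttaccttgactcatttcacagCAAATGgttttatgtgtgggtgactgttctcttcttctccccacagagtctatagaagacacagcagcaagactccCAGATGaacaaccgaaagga
Csf2ra: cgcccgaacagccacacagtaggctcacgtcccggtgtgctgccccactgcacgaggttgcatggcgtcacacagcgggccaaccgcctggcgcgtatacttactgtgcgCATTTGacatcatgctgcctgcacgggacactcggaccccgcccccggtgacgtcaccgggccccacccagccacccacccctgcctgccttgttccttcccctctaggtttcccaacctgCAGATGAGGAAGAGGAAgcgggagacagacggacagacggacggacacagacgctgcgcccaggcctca

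Promoters of 7 of the 9 genes were searched. None was searched for Csf2rb, on chromosome 15, for which the RefSeq table gave no entry that was used. Csf1r was not searched either, since it lies on chromosome 18, which was left out for the 9 genes. GAGGAA stood in the promoters of Kit, Csf3r, Csf2rb2 and Csf2ra, and 28.3% of all 32851 promoters of the same length held it. It was not found in the windows of Flt3, Zbtb46 or Csf1. The E-box, which 72.3% of promoters held, was found 2 times in Flt3, 1 time in Kit, 6 times in Zbtb46 and 2 times in Csf2ra. In Csf2ra an E-box shares its last base with the first of 2 adjoining GAGGAA motifs. TTCNNNGAA, the STAT5 motif, was found in Csf2rb2 alone of the 7 and in 8.3% of promoters. The interferon response core, GAAA repeated after any 2 bases (3.44% of promoters), and the RUNX motif TGTGGT (16.8%) were found in none of the 7 windows. Flt3, Kit and Zbtb46, which all fell, had only the common E-box among the searched letters in all 3 windows.

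Flt3 (ENSMUSG00000042817, chromosome 5, 147330741 to 147400489 in GRCm38, minus strand) had 10.8, 10.9 and 15.5 CPM in the MAVS KO libraries, against 42.4, 34.1 and 73.3 CPM in the WT libraries. Every MAVS KO library lay below every WT library, and WT replicate 3 was the highest of the 6. These values rest on 193, 163 and 211 counts in MAVS KO and 860, 638 and 1591 counts in WT. Flt3 averaged 12.4 ± 2.64 CPM in MAVS KO and 49.9 ± 20.7 CPM in WT (SD, n = 3 each), and its log2 fold change was -2.01 (SE 0.28, 95% interval -2.63 to -1.39, adjusted p = 0.0110, edgeR's quasi-likelihood test). Without MAVS KO replicate 1 the adjusted p of Flt3 was 0.0515 at a log2 fold change of -1.92, and in the other 5 fits that left out a library the call was kept.

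Kit (ENSMUSG00000005672, chromosome 5, 75574916 to 75656722, plus strand) had 9.83, 14.2 and 10.4 CPM in the MAVS KO libraries, against 21.5, 31.5 and 29.7 CPM in the WT libraries. The groups did not overlap. Kit averaged 11.5 ± 2.35 CPM in MAVS KO and 27.6 ± 5.30 CPM in WT (SD, n = 3 each), with a log2 fold change of -1.27 (SE 0.21, 95% interval -1.74 to -0.80, adjusted p = 0.0172, edgeR's quasi-likelihood test). The adjusted p of Kit was 0.0695 without MAVS KO replicate 1 and 0.095 without MAVS KO replicate 3, with log2 fold changes of -1.17 and -1.20. KIT is also the receptor of mast cells, whose part in the level of Kit was not tested. The 8 mast cell and basophil markers with a row summed to 1.54 to 7.24 CPM in MAVS KO and 1.87 to 3.27 CPM in WT. Hdc was the most abundant, at 1.63, 5.30 and 1.54 CPM in the MAVS KO libraries and 2.51, 1.82 and 2.44 CPM in the WT libraries. Cpa3, the mast cell carboxypeptidase, had no count in any MAVS KO library and 2, 0 and 0 counts in the WT libraries.

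Zbtb46 (ENSMUSG00000027583, chromosome 2, 181387762 to 181459426, minus strand) had 8.48, 10.8 and 6.96 CPM in the MAVS KO libraries, against 15.3, 17.4 and 27.5 CPM in the WT libraries. The highest MAVS KO library stayed below the lowest WT library. Zbtb46 averaged 8.75 ± 1.93 CPM in MAVS KO and 20.1 ± 6.51 CPM in WT (SD, n = 3 each), with a log2 fold change of -1.20 (SE 0.26, 95% interval -1.78 to -0.62, adjusted p = 0.0402, edgeR's quasi-likelihood test). This was the weakest of the 3 calls. The call on Zbtb46 was kept in 1 of the 6 fits that left out a library, the one without WT replicate 1, and the adjusted p in the other 5 was 0.0658 without WT replicate 2, 0.117 without WT replicate 3, 0.120 without MAVS KO replicate 1, 0.0844 without MAVS KO replicate 2 and 0.172 without MAVS KO replicate 3, at log2 fold changes of -1.37 to -0.90 over the 6 fits. Zbtb46 lies on the chromosome that carries Mavs, 50140 kb away.

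**Figure D1:**
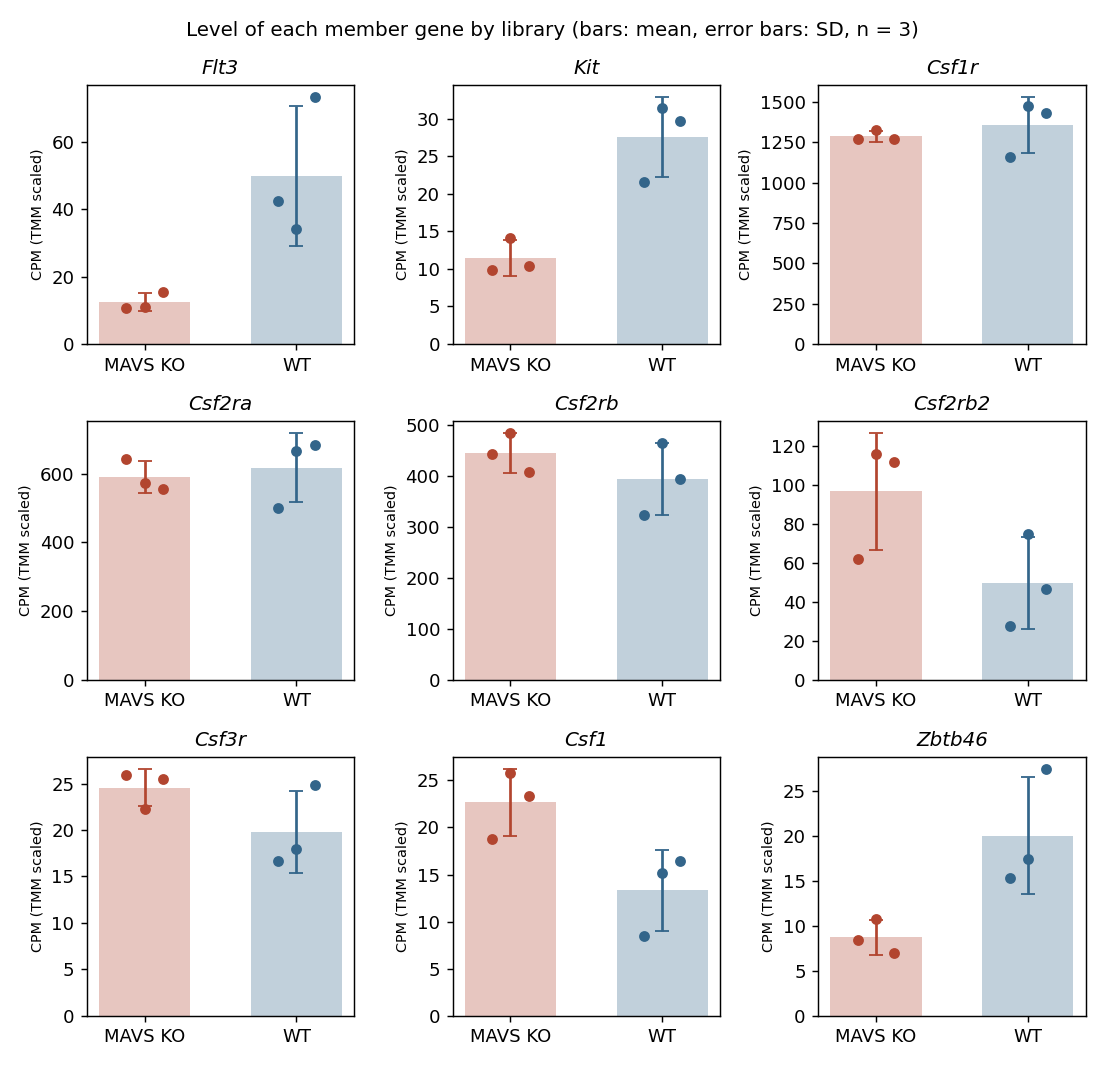
Level of each of the 9 genes in CPM (TMM scaled) in the 3 MAVS KO and 3 WT libraries, with 1 panel and its own axis per gene; points are libraries, bars the mean and error bars the SD (n = 3). Flt3, Kit and Zbtb46 lie lower in every MAVS KO library, at 10.8 to 15.5, 9.83 to 14.2 and 6.96 to 10.8 CPM, than in any WT library, and Csf1 lies higher at 18.8 to 25.8 CPM.

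Csf1r (ENSMUSG00000024621, chromosome 18, 61100598 to 61132149, plus strand), the receptor for CSF1 and IL-34, had 1267, 1327 and 1268 CPM in the MAVS KO libraries, against 1155, 1476 and 1431 CPM in the WT libraries. The MAVS KO libraries lay within the range of the WT libraries. Csf1r averaged 1287 ± 34.6 CPM in MAVS KO and 1354 ± 174 CPM in WT (SD, n = 3 each), and its log2 fold change of -0.07 had a 95% interval of -0.31 to 0.17 (adjusted p = 0.823, edgeR's quasi-likelihood test). Of the exonic bases of Csf1r, 15.12% are shared with Hmgxb3 on the opposite strand, and the sources used here do not give whether the counting used strand. With the counts of both genes summed, an alternative added after seeing the data, the log2 fold change was again -0.07 (adjusted p = 0.821, edgeR's quasi-likelihood test).

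Csf1, which encodes the ligand of CSF1R (ENSMUSG00000014599, chromosome 3, 107741048 to 107760469, minus strand), had 18.8, 25.8 and 23.4 CPM in the MAVS KO libraries, against 8.43, 15.1 and 16.5 CPM in the WT libraries. Every MAVS KO library was above every WT library, and 11.2% of all tested genes were separated in that direction. Csf1 averaged 22.7 ± 3.55 CPM in MAVS KO and 13.3 ± 4.30 CPM in WT (SD, n = 3 each). Its log2 fold change of 0.76 (SE 0.25, 95% interval 0.21 to 1.32) had an unadjusted p of 0.0118 and did not pass after adjustment (adjusted p = 0.158, edgeR's quasi-likelihood test). Of the 9 genes, 3 were separated with MAVS KO lower, 1 with MAVS KO higher and 5 overlapped, against 21.8% of all tested genes separated in either direction and 10.6% with MAVS KO lower.

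Csf2ra, which encodes the ligand-specific alpha chain of the GM-CSF receptor (ENSMUSG00000059326, chromosome 19, 61223957 to 61228429, minus strand), had 643.8, 572 and 555.9 CPM in the MAVS KO libraries, against 501, 667.2 and 683.1 CPM in the WT libraries. The groups overlapped, and the log2 fold change was -0.06 (SE 0.13, 95% interval -0.35 to 0.22, adjusted p = 0.874, edgeR's quasi-likelihood test). Without WT replicate 3 the log2 fold change of Csf2ra was 0.02. Csf2rb (ENSMUSG00000071713, chromosome 15, 78325752 to 78353847, plus strand) encodes the beta chain shared by the receptors for GM-CSF, IL-3 and IL-5. It had 444, 485 and 408 CPM in the MAVS KO libraries, against 323.5, 465 and 395 CPM in the WT libraries. These groups overlapped too, and the log2 fold change was 0.17 (SE 0.14, 95% interval -0.13 to 0.48, adjusted p = 0.609, edgeR's quasi-likelihood test).

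Csf2rb2 (ENSMUSG00000071714, chromosome 15, 78282507 to 78305721, minus strand) is the mouse copy of the beta chain that serves IL-3. It had 62.2, 116 and 112 CPM in the MAVS KO libraries, against 27.8, 74.9 and 46.9 CPM in the WT libraries. The lowest MAVS KO library lay below the highest WT library, and the spread within each group was wide. Csf2rb2 averaged 96.7 ± 30.0 CPM in MAVS KO and 49.8 ± 23.7 CPM in WT (SD, n = 3 each), with a log2 fold change of 0.96 (SE 0.33, 95% interval 0.23 to 1.68). The unadjusted p was 0.0143 and the adjusted p was 0.175 (edgeR's quasi-likelihood test). With no filter on low counts, or with a block for the replicate number, Csf2rb2 passed as higher in MAVS KO. The labels do not say whether the replicate numbers pair the samples.

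The beta chain copies are alike enough for reads to be split between them. Of the 4740 bases of the Csf2rb2 transcript, 95.5% aligned to that of Csf2rb at 91.3% identity, and 19.0% of its windows of 50 bases were identical there, so the value of each taken singly is uncertain. Csf2rb2 took 12.3% (95% Wilson interval 11.6 to 12.97), 19.3% (18.5 to 20.2) and 21.5% (20.6 to 22.5) of the counts of both genes in the MAVS KO libraries. In the WT libraries it took 7.90% (7.30 to 8.55), 13.9% (13.2 to 14.6) and 10.6% (9.99 to 11.2), so the groups overlapped, and these intervals cover counting error only. The summed counts of both chains had a log2 fold change of 0.29 (SE 0.15, 95% interval -0.04 to 0.62, adjusted p = 0.396, edgeR's quasi-likelihood test).

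Csf3r, which encodes the G-CSF receptor of neutrophils and monocytes (ENSMUSG00000028859, chromosome 4, 126024550 to 126044440, plus strand), had 26.0, 22.3 and 25.5 CPM in the MAVS KO libraries, against 16.6, 17.9 and 24.9 CPM in the WT libraries. WT replicate 3 lay among the MAVS KO libraries. Its log2 fold change of 0.31 had a 95% interval of -0.10 to 0.72 (adjusted p = 0.479, edgeR's quasi-likelihood test). The 11 neutrophil markers with a row summed to 72.3 to 82.0 CPM in MAVS KO and 35.2 to 87.8 CPM in WT. Of 5 tested 1 passed, Mmp8, a neutrophil collagenase, which rose (61.0 ± 2.87 CPM in MAVS KO and 28.6 ± 2.61 CPM in WT; SD, n = 3 each). The others tested were S100a8 (7.501 ± 2.31 CPM in MAVS KO and 5.13 ± 0.753 CPM in WT), Mmp9 (3.71 ± 2.45 CPM in MAVS KO and 23.2 ± 23.6 CPM in WT), Cxcr2 (2.85 ± 0.893 CPM in MAVS KO and 2.96 ± 1.87 CPM in WT) and Ltf (0.784 ± 0.148 CPM in MAVS KO and 0.332 ± 0.352 CPM in WT). Ly6g and S100a9, which define neutrophils, were at 0 and 0.06 CPM in MAVS KO and 0.02 and 0.05 CPM in WT, and the part of neutrophils in the level of Csf3r was not tested.

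**Figure D2:**
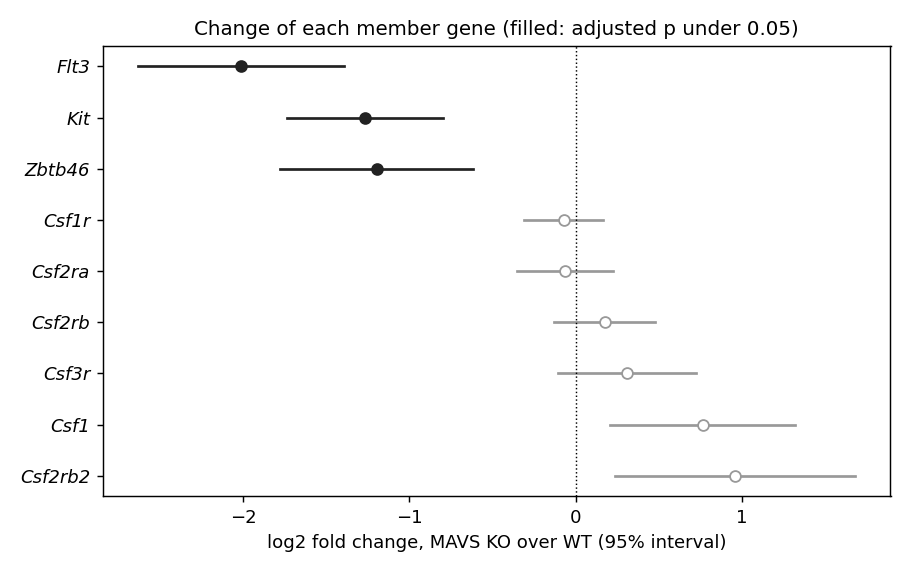
log2 fold change of MAVS KO over WT for each of the 9 genes, with 95% intervals from the fit over all tested genes (horizontal axis, log2 units); filled points passed an adjusted p of 0.05. Flt3, Kit and Zbtb46 are filled and lie at -2.01, -1.27 and -1.20, while Csf1r and Csf2ra lie at -0.07 and -0.06.

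Levels were compared between genes per exonic length, as RPKM, the CPM divided by kilobases of sequence, over the union of exons. In MAVS KO the mean levels were 223.0 RPKM for Csf1r, 205.7 for Csf2ra, 61.2 for Csf2rb, 20.4 for Csf2rb2, 6.81 for Csf3r, 4.29 for Csf1, 2.01 for Flt3, 1.29 for Kit and 1.03 RPKM for Zbtb46. The ranges of Csf1r and Csf2ra overlapped, as did those of Kit and Zbtb46, and the other neighbours in that order did not. In WT the mean levels were 234.5 RPKM for Csf1r, 214.9 for Csf2ra, 54.3 for Csf2rb, 10.5 for Csf2rb2, 8.08 for Flt3, 5.49 for Csf3r, 3.09 for Kit, 2.52 for Csf1 and 2.36 RPKM for Zbtb46. There Csf2rb2, Flt3 and Csf3r overlapped as neighbours, as did Csf1r with Csf2ra and Kit with Csf1 and Csf1 with Zbtb46. In mean level Flt3 stood below Csf3r and Csf1 in MAVS KO, and above both in WT.

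**Figure D3:**
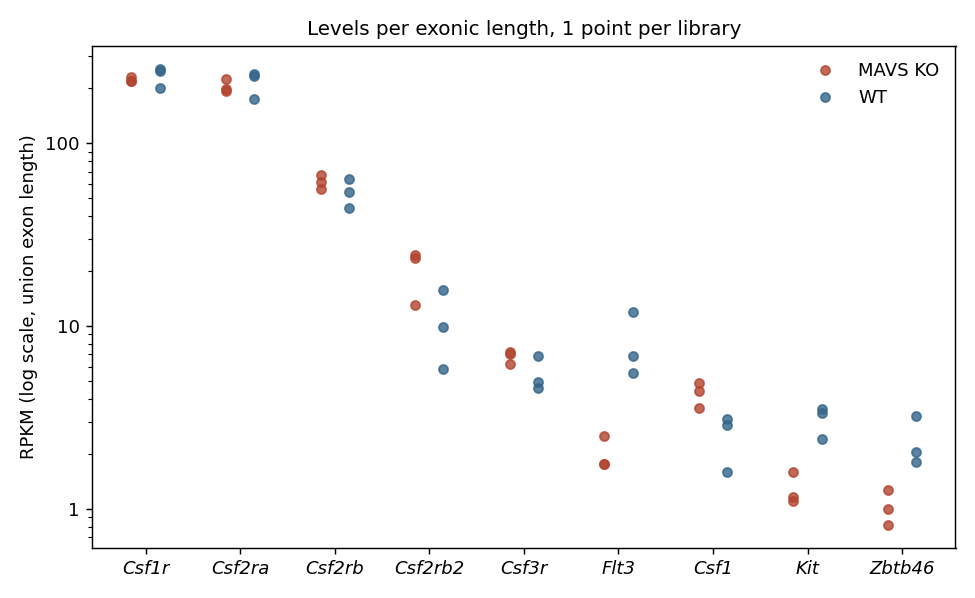
Level of the 9 genes per exonic length in RPKM on a log axis, with 1 point per library, MAVS KO left of WT for each gene. Csf1r and Csf2ra lie near 200 RPKM in both groups, while Flt3 lies at 1.75 to 2.50 RPKM in MAVS KO and 5.51 to 11.9 RPKM in WT.

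A ratio of a pair of genes within a library does not depend on the scaling between libraries. Per exonic length, Csf1r exceeded Flt3 by 87.7 to 130 times in the MAVS KO libraries and by 20.9 to 46.3 times in the WT libraries. On the log2 scale the count ratio of Flt3 to Csf1r was -6.87, -6.92 and -6.36 in the MAVS KO libraries, against -4.77, -5.44 and -4.29 in the WT libraries. Every MAVS KO library had the lower ratio. The difference of the means was -1.88, with an exact two-sided permutation p of 0.1, the smallest that 3 against 3 libraries can give.

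The same ratio to Csf1r was read as a description for the other genes. On the log2 scale it differed by -1.20 for Kit and -1.11 for Zbtb46, with the MAVS KO libraries lower in all 3 in each case. It differed by 0.01 for Csf2ra, whose groups overlapped. It was higher by 0.88 for Csf1, with no overlap between groups. For Csf2rb it was higher by 0.25, and the groups were barely apart. There the lowest MAVS KO ratio was -1.636 and the highest WT ratio -1.665. For Csf2rb2 and Csf3r the differences were 1.08 and 0.40 and the groups overlapped. Per exonic length Csf2ra exceeded Csf2rb by 2.99 to 3.67 times in the MAVS KO libraries and by 3.63 to 4.38 times in the WT libraries.

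**Figure D4:**
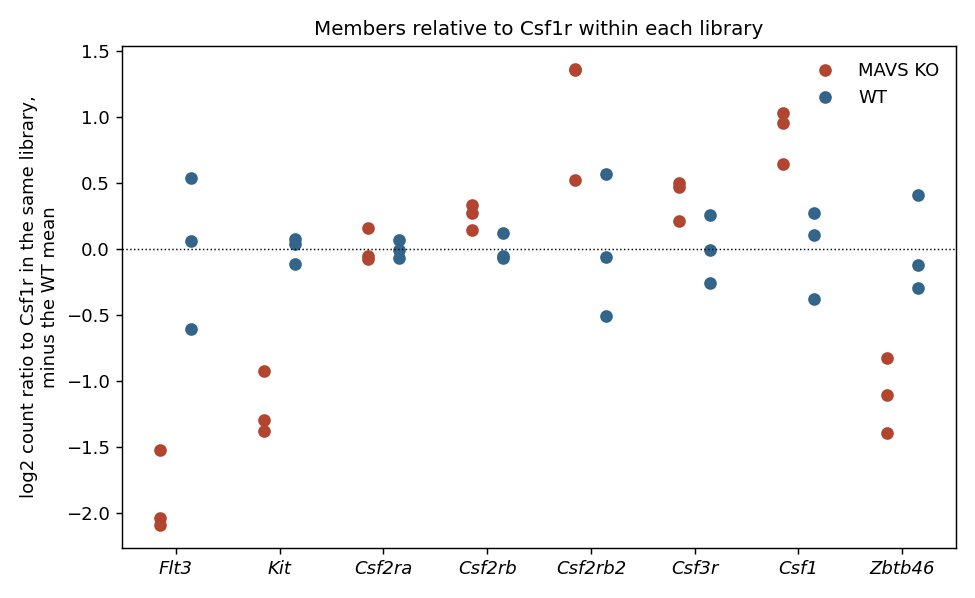
log2 count ratio of each gene to Csf1r in the same library, minus the WT mean of that ratio (vertical axis, log2 units), with 1 point per library. Flt3, Kit and Zbtb46 lie lower in all MAVS KO libraries, with mean differences of -1.88, -1.20 and -1.11, and Csf2ra lies near 0 in both groups.

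Of the 3 genes that fell, Kit and Zbtb46 were closer to each other in pattern across the 6 libraries than either was to Flt3. As a measure of likeness, the root mean square difference between the centred log2(CPM + 0.1) profiles was used, where 0 is an identical pattern. Kit and Zbtb46 differed by 0.243, Flt3 and Zbtb46 by 0.535, and Flt3 and Kit by 0.562. Csf1r and Csf2ra differed by 0.0854. Among 8640 protein-coding genes with a mean of at least 5 CPM, the nearest patterns to Flt3 were those of Xcr1, the chemokine receptor of type 1 conventional dendritic cells (0.161), of Slc46a3, a lysosomal transporter (0.185), and of Cd209a, a lectin of type 2 cells (0.233). The nearest to Kit were Kmo, kynurenine monooxygenase (0.0833), Foxm1 (0.193) and Srgap3 (0.204), and the nearest to Zbtb46 were Gdpd5 (0.131), Vps37b (0.207) and Ppp1r16b (0.220). The nearest to Csf1r were Cux1 (0.0182), Cdk5rap3 (0.0309) and Llgl1 (0.0375), those to Csf2ra were Sbno2 (0.0285), Srpk2 (0.0442) and Fbh1 (0.0446), those to Csf3r were E2f1 (0.0581), Trafd1 (0.0610) and Clic4 (0.0711), and those to Csf1 were Jag1 (0.0852), Zfp668 (0.10) and Alg12 (0.115). Genes that change little lie close to many others on this measure.

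The other ligand genes analysed averaged under 3 CPM in both groups. Kitl, which encodes the KIT ligand, averaged 1.67 ± 1.05 CPM in MAVS KO and 1.59 ± 0.920 CPM in WT (SD, n = 3 each). Il34, the other CSF1R ligand, averaged 2.44 ± 2.23 CPM in MAVS KO and 2.96 ± 0.507 CPM in WT, and Csf3, encoding G-CSF, 0.414 ± 0.240 CPM in MAVS KO and 0.630 ± 0.272 CPM in WT (SD, n = 3 each). None of these 3 tested ligand genes passed. Csf2, encoding GM-CSF, had 14, 0 and 6 counts in the MAVS KO libraries and 1 count in each WT library, and was too low to be tested. Flt3l, Il3 and Il5 were not analysed here.

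Of 4 related receptor genes 2 could be tested and none passed. Il3ra, the alpha chain that pairs with the beta chains for IL-3, averaged 8.25 ± 2.82 CPM in MAVS KO and 5.50 ± 0.409 CPM in WT without overlap (SD, n = 3 each; log2 fold change 0.58, 95% interval -0.05 to 1.21, adjusted p = 0.36, edgeR's quasi-likelihood test). Pdgfrb, a kinase of the CSF1R family, had a log2 fold change of 0.70 (95% interval -0.86 to 2.26, adjusted p = 0.709, edgeR's quasi-likelihood test), and Pdgfra and Il5ra were too low to be tested. Of 30 tested genes of receptor signalling 1 rose and none fell, a share near the 2.81% of all tested genes called, and the median log2 fold change was -0.10. That gene was Grb2, the adaptor that links receptor kinases to RAS, at 50.7 ± 9.29 CPM in MAVS KO and 28.1 ± 5.73 CPM in WT (SD, n = 3 each; log2 fold change 0.85, adjusted p = 0.0402, edgeR's quasi-likelihood test). Jak2, the kinase used by the GM-CSF receptor, and Stat5a, its STAT protein, had log2 fold changes of 0.21 and -0.10 and did not pass. Socs1, a feedback inhibitor of JAK kinases, averaged 66.6 ± 2.11 CPM in MAVS KO and 31.3 ± 13.5 CPM in WT (SD, n = 3 each), did not overlap between groups and did not pass (log2 fold change 1.09, adjusted p = 0.054, edgeR's quasi-likelihood test). Jak2, Stat5a and Socs1 were chosen after their values were seen.

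Of 21 tested transcription factors of dendritic cell and macrophage development 1 rose and 1 fell, with a median log2 fold change of 0.14. Of all tested genes 2.81% were called in either direction. Id2, an inhibitor of E proteins needed for conventional dendritic cells, averaged 857 ± 37.5 CPM in MAVS KO and 604 ± 46.1 CPM in WT (SD, n = 3 each; log2 fold change 0.51, adjusted p = 0.0282, edgeR's quasi-likelihood test). Bcl11a, a factor that acts upstream of Flt3 in lymphoid and dendritic progenitors, averaged 1.09 ± 0.320 CPM in MAVS KO and 4.39 ± 1.07 CPM in WT (SD, n = 3 each; log2 fold change -1.99, adjusted p = 0.0327, edgeR's quasi-likelihood test). Of 14 GM-CSF responsive genes 5 rose and 1 fell, with a median log2 fold change of 0.54. Over all tested genes, 1.76% were called higher and 1.05% lower. Those that rose were Il1rn, the IL-1 receptor antagonist (log2 fold change 0.73), Bcl2l1, a survival factor (0.62), Chil3, a chitinase-like protein (2.46), and the chemokine genes Ccl22 (0.95) and Ccl24 (2.77). The gene that fell was Itgae, encoding the integrin CD103 (-1.85).

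Markers of conventional dendritic cells moved in the direction of Flt3, Kit and Zbtb46 in part. Of 26 tested genes shared by conventional dendritic cells 6 fell and 2 rose, with a median log2 fold change of -0.56. Among all tested genes 1.05% were called lower and 1.76% higher. The genes named next are from the shared list. Those that fell were Spint1 (-8.12), which lies on the same chromosome as Mavs, Btla (-2.26), Bcl11a, Kmo (-1.32), Sept6 (-1.23) and Adgrg5 (-1.09), and those that rose were Ass1 (0.91) and Ccr7 (1.12). Of 10 markers of type 1 cells 5 fell and none rose, namely Xcr1 (-2.18), Snx22 (-2.44), Wdfy4 (-0.96), Itgae and Gcsam (-2.08). Clec9a, another marker of type 1 cells, had a log2 fold change of -0.07 and did not pass, a gene named after its value was seen. Of 7 tested markers of type 2 cells, Cd209a fell (-1.86) and Sirpa rose (0.56). The 8 type 2 markers summed to 2758 to 4444 CPM in MAVS KO and 2343 to 2653 CPM in WT, higher in every MAVS KO library. Without Mgl2, the most abundant, their sum was 1105 to 1135 CPM in MAVS KO and 882 to 886 CPM in WT, again higher. Most of that remaining sum was Sirpa, at 809.5 to 840.4 CPM in MAVS KO and 516.2 to 620.9 CPM in WT. The separation of the type 2 sum without Mgl2 thus rests largely on Sirpa. The summed level overlapped between groups for the shared genes and for the type 1 markers, which summed to 502.9 to 549.5 CPM in MAVS KO and 456.9 to 803.7 CPM in WT. Irf8, a factor for type 1 cells that macrophages also express, made up most of the type 1 sum. Ass1, the most abundant of the shared genes by mean, was a smaller part of theirs, at 348.9 to 518.1 CPM in MAVS KO and 197.2 to 271.6 CPM in WT. Sums without the most abundant gene of each list were an alternative added after seeing the data. Without Ass1 the shared genes summed to 693.7 to 747 CPM in MAVS KO and 1002 to 1128 CPM in WT. Without Irf8 the type 1 markers summed to 72.0 to 99.5 CPM in MAVS KO and 161 to 266.5 CPM in WT. Both sums were then lower in every MAVS KO library. Of the shared sum, Spint1 alone made up 228.5 to 313.7 CPM in WT and 0 to 1.57 CPM in MAVS KO. The separation of the shared sum thus rests largely on Spint1.

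Summed levels of other marker lists also differed with genotype, several through a single gene, and their part in the fall of Flt3, Kit and Zbtb46 was not tested. Of 12 tested proliferation genes 8 fell and none rose, against 1.05% of all tested genes called lower. Their summed level was 437 to 484 CPM in MAVS KO and 646 to 1007 CPM in WT. Without the most abundant, Mcm6, the groups still did not overlap. The summed level of 6 B cell markers was 10.8 to 13.2 CPM in MAVS KO and 32.3 to 53.2 CPM in WT, with Ighm, the immunoglobulin mu chain, fallen by 1.93 on the log2 scale. The summed level of 10 T cell and innate lymphoid markers was 285 to 303 CPM in MAVS KO and 130 to 186 CPM in WT, of which Il7r rose (log2 fold change 1.07) and Cd3e averaged 1.05 CPM in MAVS KO and 0.585 CPM in WT. The summed level of 8 monocyte markers was 8583 to 17130 CPM in MAVS KO and 5705 to 6454 CPM in WT, and Chil3 was the only 1 of the 8 to pass. For 10 fibroblast and endothelial markers the sums were 64.0 to 88.7 CPM in MAVS KO and 52.3 to 62.8 CPM in WT, and none of 7 tested passed. Without the most abundant gene of each list the groups overlapped for the B cell (Ighm), T cell and innate lymphoid (Il7r), monocyte (Chil3) and fibroblast and endothelial (Pecam1) sums. The T cell and innate lymphoid sum was then 23.8 to 35.5 CPM in MAVS KO and 22.9 to 32.8 CPM in WT, and the monocyte sum 4650 to 5346 CPM in MAVS KO and 4036 to 5842 CPM in WT. The macrophage sum without Lyz2 was 13210 to 13610 CPM in MAVS KO and 10520 to 11500 CPM in WT, without overlap.

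Over the 20 lists together, 38 of 187 distinct tested genes passed (20.3%, against 2.81% of all tested genes), 15 higher and 23 lower in MAVS KO. These lists were chosen with earlier results of these data known, so the share is a description. With 1 library left out the count was 10 without MAVS KO replicate 1, 14 without MAVS KO replicate 2, 10 without MAVS KO replicate 3, 22 without WT replicate 1, 20 without WT replicate 2 and 35 without WT replicate 3. The genes that passed in all 6 of those fits were 8, namely Btla, Kmo, Spint1, Xcr1, Cd209a, Mmp8, Ighm and Il7r. With scaling by library size alone Grb2, Id2, Bcl2l1, Ccl22, Sirpa, Lamp2 and Ctsl no longer passed, with limma-voom Bcl11a, Gcsam, Itgae and Ccl24 did not, and with robust dispersion Chil3 and Ccl24 did not.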

How the data were processed

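The deposited table holds raw read counts per Ensembl mouse gene, made by the authors before deposit, for 6 samples (3 MAVS KO and 3 WT, grouped by the labels' genotype). The submitters' processing notes name mm10, HISAT2 (also HISAT), HTSeq and DESeq2, without roles or versions. Neither annotation release nor strandedness is stated in the sources used here. Symbols, positions and exon lengths came from GENCODE M21 on GRCm38 (26383 of 26519 identifiers matched), and promoters from RefSeq GRCm38.p6.

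In R 4.3.3, edgeR 4.0.16 was run with TMM scaling. Low genes were removed by filterByExpr at a count of 10 and a total of 15, and the quasi-likelihood F test on genotype was applied to the 12580 genes left, with Benjamini-Hochberg adjustment at 0.05. CPM and RPKM were computed from those counts with TMM-scaled library sizes. Ratios within a library used counts plus 0.5. No library was a duplicate: pairs within groups had a chi-square of 15.9 to 38.8 per degree of freedom. The procedure was tested on simulated data.

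The members, the 20 lists and the alternatives were chosen with earlier results of these data known. Genes named are the 9 members and Mavs, all genes of a list past the threshold (at most 6, by smallest p; the 2 most abundant where none passed), all ligand and related receptor genes, and the 3 nearest patterns per member other than the beta chains. Lyz2, Cpa3, Ly6g, S100a8, S100a9, Mmp9, Cxcr2, Ltf, Irf8, Cd3e, Adgrg5, Mgl2, Cd83 and the genes so marked in the text were added after their values were seen. Alternatives were DESeq2 1.42.0 (size factors; Wald test), library size alone, no filter, a mean of at least 5 CPM, robust dispersion, a replicate block, limma-voom (limma 3.58.1), summed copies, marker sums without the most abundant gene, and leaving out each library.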

Additional observations from a re-analysis of the deposited data

How the results depend on the processing

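Flt3, Kit and Zbtb46 kept their direction under every alternative run, and Flt3 and Kit kept their call in each that used all 6 libraries. With limma-voom Zbtb46 was at -1.18 (adjusted p = 0.0612) and no longer passed. With no filter on low counts Csf2rb2 (0.95) and Csf1 (0.76) passed, which gave 5 of the 9 genes, 64 list genes and 924 genes in all; the DESeq2 Wald test called 738 genes in all. Leaving out each library in turn, log2 fold changes ran from -2.23 to -1.62 for Flt3, -1.45 to -1.17 for Kit, -1.37 to -0.90 for Zbtb46, -0.20 to 0.017 for Csf2ra, 0.66 to 1.36 for Csf2rb2 and 0.51 to 0.95 for Csf1. The counts ran from 0 to 3 of the 9 genes (0 without MAVS KO replicate 1, where 0.302% of all genes passed, and 1 without MAVS KO replicate 3, where 0.274% did), from 10 to 35 list genes and from 36 to 277 genes in all, and the Flt3 to Csf1r difference from -2.19 to -1.61. The cause was not tested.

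Scaling by library size alone moved the median of all tested genes to -0.172, Csf2rb to near 0, Col3a1 to -0.13 and Kitl to -0.11. Col3a1 was also reversed with the replicate block (-0.11) and limma-voom (-0.13), and Kitl with limma-voom (-0.018). Among other genes with no call, leaving out a library turned the sign of Cdk5rap3 (-0.20 to 0.003), Col3a1 (-0.87 to 0.59), Cux1 (-0.18 to 0.008), Fbh1 (-0.19 to 0.041), Hdc (-0.51 to 0.61), Il34 (-1.30 to 0.15), Kitl (-0.48 to 0.46), Llgl1 (-0.16 to 0.001), Srpk2 (-0.14 to 0.024) and Tcf4 (-0.19 to 0.11). Same-numbered libraries of the groups deviated together with correlations of 0.0383, 0.0866 and -0.0428. These are small but cannot exclude a pairing, and the labels do not say whether the numbers pair the samples. With the replicate block 4 of the 9 genes passed, Csf2rb2 added at 1.01 (adjusted p = 0.00803), and 414 genes in all.

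Kit, Zbtb46, Csf1 and Flt3 had 95 to 211 counts in some libraries, and with 3 libraries a group the spread between libraries limits their precision more than counting does.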

Other observations

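Of 12 tested genes of mature dendritic cells, Cd200 (log2 fold change 1.82), Ccr7 and Ccl22 rose and Tmem176a (-1.74) and Tmem176b (-1.63) fell in MAVS KO, against 2.81% of all tested genes called in either direction. The summed level of the 13 mature genes overlapped between groups. Without Cd83, the most abundant, the sum was 365 to 531 CPM in MAVS KO and 321 to 345 CPM in WT, without overlap. Of 24 macrophage markers, Lamp2 (0.51), a lysosomal membrane protein, and Ctsl (0.67), the lysosomal protease cathepsin L, rose and none fell. The groups were separated for 10 markers with MAVS KO higher and 3 with MAVS KO lower, against 11.2% and 10.6% of all tested genes. The log2 fold change of Mmp8 was 1.10. Of the 8 proliferation genes that fell among 12 tested, those with the smallest p were Bub1b (-1.48), a mitotic checkpoint kinase, Mcm5 (-1.11), Mcm2 (-1.06), Mcm3 (-0.94) and Mcm6 (-0.84) of the replicative helicase, and Rrm2 (-0.86), a subunit of ribonucleotide reductase.

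No gene passed among 5 tested plasmacytoid dendritic cell markers, where Tcf4 averaged 54.5 ± 11.4 CPM in MAVS KO and 56.1 ± 6.63 CPM in WT and Pacsin1 0.699 ± 0.229 CPM in MAVS KO and 1.40 ± 0.611 CPM in WT (SD, n = 3 each). None passed among 2 tested progenitor markers, where Cd34 averaged 18.9 ± 10.3 CPM in MAVS KO and 23.6 ± 8.84 CPM in WT and Meis1 1.08 ± 0.339 CPM in MAVS KO and 1.47 ± 0.367 CPM in WT. The mast cell marker tested, Hdc, averaged 2.82 ± 2.15 CPM in MAVS KO and 2.26 ± 0.384 CPM in WT and did not pass. Of the tumour epithelial markers Cdh1 averaged 529.3 ± 132 CPM in MAVS KO and 442.4 ± 85.9 CPM in WT, Epcam 6.91 ± 1.51 CPM in MAVS KO and 10.5 ± 5.17 CPM in WT, and neither passed. Pecam1, the most abundant endothelial marker, averaged 51.8 ± 16.4 CPM in MAVS KO and 31.3 ± 10.2 CPM in WT, and Col3a1 13.9 ± 11.3 CPM in MAVS KO and 13.4 ± 7.36 CPM in WT.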
